A study of Mus musculus with 6 samples.

Results

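The genes described here are 10 that make bile acids in the liver or hold their synthesis in check, chosen by name from the 41838 genes of the table: Cyp7a1, Cyp8b1, Cyp27a1, Cyp7b1, Hsd3b7, Akr1d1, Slc27a5, Baat, Nr1h4 and Nr0b2. All 10 were found, and all 10 passed the filter on low values, a mean of at least 1 FPKM over the libraries, which left 10453 genes. FPKM counts sequenced fragments relative to gene length and to a size set for each library, so it is a level per length. Poly(A) RNA was sequenced from 6 mouse livers, 3 of Alkbh5flox/flox mice (flox) and 3 of Alkbh5-HKO mice (HKO), whose sample titles read Alkbh5-CKO. ALKBH5 takes the methyl group off N6-methyladenosine in RNA. All mice ate normal chow. They were 9 weeks old by the series text, and had been fed for 9 weeks by the extract protocol. Neither source names the Cre driver, the deleted exons, the sex, the feeding state or the hour of sampling.

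Bile acids are made from cholesterol in hepatocytes. The classic pathway starts with CYP7A1, the alternative pathway with CYP27A1 and CYP7B1, and CYP8B1 decides how much cholic acid is made. HSD3B7 and AKR1D1 then reshape the sterol rings, and SLC27A5 and BAAT join the product to taurine or glycine. Bile acids that return to the liver bind FXR, encoded by Nr1h4. FXR induces SHP, encoded by Nr0b2, which represses Cyp7a1 and Cyp8b1. A second signal, the hormone FGF15, comes from the ileum and acts through FGFR4 and its co-receptor beta-Klotho. Synthesis follows the day and meals, and in mice Cyp7b1 is known to be higher in males.

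Alkbh5 itself stood at 17.8, 16.8 and 14.8 FPKM in flox libraries 1 to 3 and at 0.508, 0.443 and 0.476 in HKO libraries 1 to 3. It fell by 3.56 on the log2(FPKM + 1) scale (limma with Benjamini-Hochberg adjustment, adjusted p = 8.14e-05). Recovered depth was 14907384 to 17034754 reads per library, and HKO library 1 lay apart from the other HKO libraries on the first principal component (38.6 against 15.7 and 4.51). Hepatocyte markers summed to 43213 to 52221 FPKM in flox and 48533 to 51266 in HKO. Most of this sum was albumin, Alb, which was higher in every HKO library (28517 ± 3175 and 36341 ± 3215 FPKM), while Apoa1 was lower in every one (10724 ± 1183 and 6822 ± 3083). Of 7 bile duct markers 1 passed the filter, and the defining keratins Krt19 and Krt7 were at no more than 1.08 FPKM in any library. The marker that passed the filter, Spp1, was at 29.2 ± 4.45 FPKM in flox and 20.2 ± 0.995 in HKO (SD, n = 3), lower in every HKO library. All 5 red cell markers were lower in every HKO library, as were 12.6% of all tested genes. Their summed level was 352 to 674 FPKM in flox and 105 to 209 in HKO, and the globin Hbb-bt passed as lower. Of 3 intestinal markers tested 2 were higher in HKO and 1 lower (median log2 0.05). The lower one, Lgals4, passed, at 28.9 ± 1.25 FPKM in flox and 11.7 ± 3.03 in HKO. The part of these markers in the results below was not tested.

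None of the 10 genes passed over all genes (limma with Benjamini-Hochberg adjustment at 0.05), where 0.488% of tested genes did, 0.268% as higher and 0.220% as lower. Voom on the recovered reads also passed 0 of the 10. At an unadjusted p under 0.05 there were 2 of the 10, Akr1d1 as higher and Baat as lower, where 17.0% of all tested genes reached it. Of all 10453 tested genes 896 reached it as higher and 882 as lower. The same 2 genes were those whose groups did not overlap, as was so for 25.4% of all tested genes. Of all tested genes 12.8% had every HKO library above every flox library, and 12.6% had every one below. The differences of the 10 genes had a median of -0.33 on the log2(FPKM + 1) scale, against -0.02 over all tested genes. Over all tested genes 5022 were higher and 5431 lower on this scale. By the same log2 difference 2 of the 10 were higher in HKO and 8 lower. Slc27a5, the 8th of these at a difference near 0, changed sign with quantile scaling, TPM or scaling to the sum of reads. In bulk liver, fewer cells of a type and less RNA per cell cannot be told apart.

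**Figure D1:**
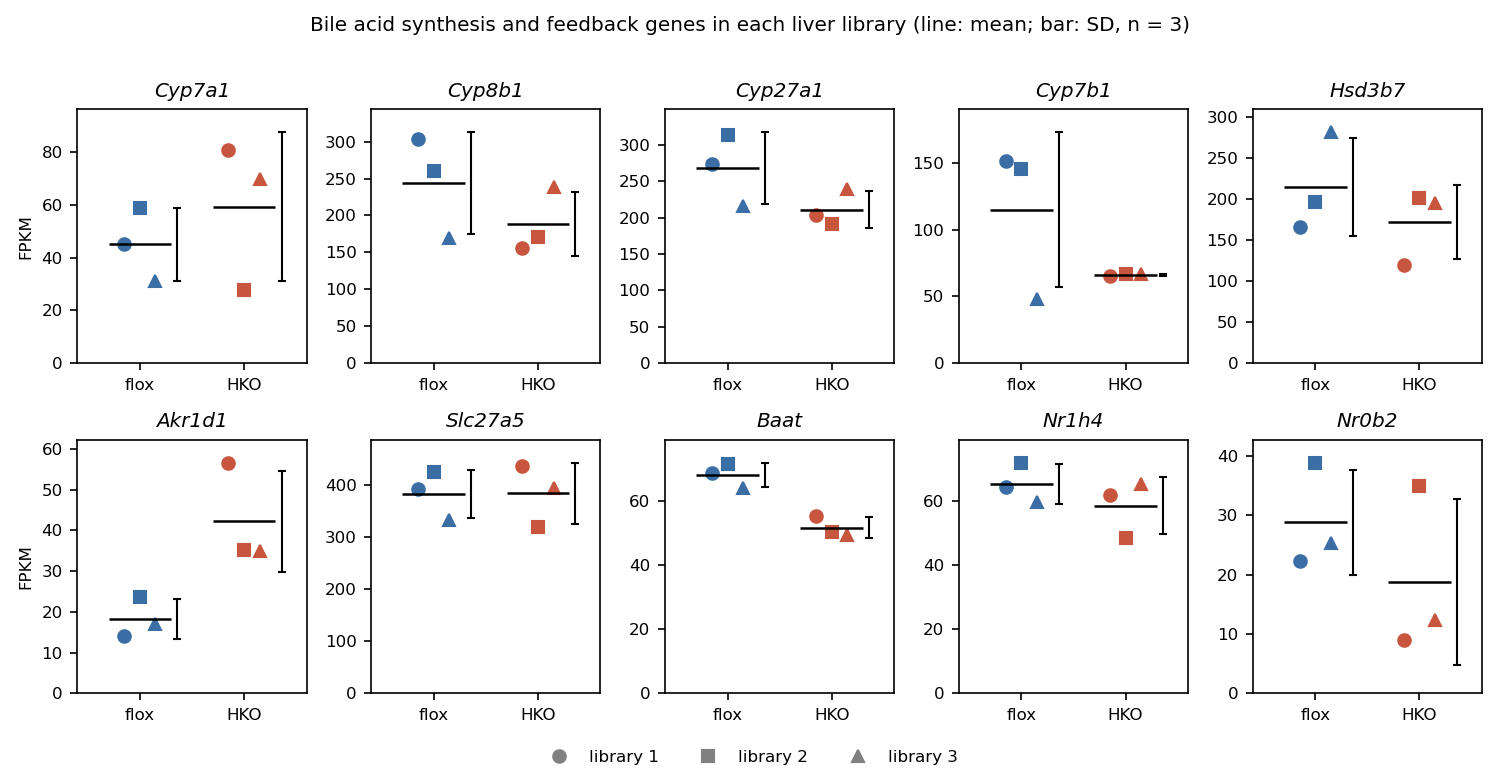
Each panel plots FPKM of 1 gene, from 0, in the flox (blue) and HKO (red) libraries; marker shapes give the library number, lines the mean and bars the SD (n = 3). The groups are separate for Akr1d1 and Baat and overlap for the other 8 genes.

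The upstream 250 bases of 2 genes are shown first, the repressor SHP and an enzyme under its control. They come from RefSeq on GRCm38.p6, whose table matched 6 of the 10 genes: Cyp8b1, Cyp27a1, Hsd3b7, Akr1d1, Nr1h4 and Nr0b2. Cyp7a1, Cyp7b1, Slc27a5 and Baat had no entry. For Nr0b2 and Cyp8b1 the RefSeq start is also the start of the gene in the deposited table, and these are printed. For the other 4 the table places a start inside the deposited gene, with 250 of 250 bases of the window within it for Cyp27a1 and Nr1h4, 195 for Akr1d1 and 8 for Hsd3b7, so their windows are not described as upstream. Each sequence printed reads 5′ to 3′ toward the gene and ends at the base before the start site. Capitals mark matches on either strand to 7 motifs: the nuclear receptor half-site AGGTCA, the LRH-1 site CAAGGNCA, the FXR inverted repeat (AGGTCA and its reverse complement with 1 base between), the HNF4A site CAAAGTCCA, the E-box CACGTG, the D-box TTATGNAA and the TATA box TATAAA. Any CAAGGNCA with T at the N also holds the half-site, as does the inverted repeat. Positions are counted back from the start site, with -1 the base before it.
Nr0b2, chr4:133553126-133553375, plus strand: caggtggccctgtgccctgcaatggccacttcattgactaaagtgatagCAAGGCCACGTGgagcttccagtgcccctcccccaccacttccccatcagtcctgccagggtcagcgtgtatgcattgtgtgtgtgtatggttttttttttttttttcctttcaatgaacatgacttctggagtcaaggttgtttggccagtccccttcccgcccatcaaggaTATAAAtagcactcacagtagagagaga
Cyp8b1, chr9:121916306-121916555, minus strand: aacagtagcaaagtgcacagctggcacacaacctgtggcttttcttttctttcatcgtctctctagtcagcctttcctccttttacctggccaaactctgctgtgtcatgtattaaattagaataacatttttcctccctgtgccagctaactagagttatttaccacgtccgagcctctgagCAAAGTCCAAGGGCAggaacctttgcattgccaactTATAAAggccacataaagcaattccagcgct

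Nr0b2 held an LRH-1 site, CAAGGCCA, at -201 to -194, and an E-box at -195 to -190 that shares 2 of its letters. A TATA box stood at -28 to -23. In Cyp8b1 an HNF4A site at -67 to -59 shared 2 letters with an LRH-1 site, CAAGGGCA, at -60 to -53, and a TATA box stood at -31 to -26. Neither window matched the half-site, the FXR repeat or the D-box. Over all 32851 windows of this length in the RefSeq table, 5.53% held the LRH-1 site, 0.384% the HNF4A site, 6.02% the E-box, 3.07% the D-box, 12.4% the TATA box, 14% the half-site and 0.00609% the FXR repeat. These matches describe letters and do not show binding.

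Cyp7a1 (gene 13122, chr4:6264113-6275631, minus strand), the rate-limiting enzyme of the classic pathway, was at 45.2, 58.9 and 31.1 FPKM in flox libraries 1 to 3. Its level was 80.9, 27.6 and 69.8 FPKM in HKO libraries 1 to 3. HKO libraries 1 and 3 were thus the highest of all 6 and HKO library 2 the lowest. The log2 difference was 0.30 (SE 0.43, 95% interval -0.71 to 1.31, limma with Benjamini-Hochberg adjustment, adjusted p = 0.742). It was 0.77 without HKO library 2 and 0.01 without HKO library 1, and it passed in neither fit.

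Cyp8b1 (gene 13124, chr9:121914356-121916305, minus strand), the 12-alpha-hydroxylase, had 303, 259.8 and 169 FPKM in flox and 156, 171 and 239 in HKO. Flox library 3 sat among the HKO values. Its log2 difference was -0.35 (SE 0.26, 95% interval -0.96 to 0.26, limma with Benjamini-Hochberg adjustment, adjusted p = 0.517). Set against Cyp7a1 in the same library, Cyp8b1 was 6.70, 4.41 and 5.43 times as high in flox and 1.93, 6.17 and 3.42 times as high in HKO. The ratio was lowest in HKO library 1, and HKO library 2 fell within the flox range.

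Cyp27a1 (gene 104086, chr1:74713146-74737897, plus strand), the mitochondrial enzyme that opens the alternative pathway, was at 274, 314 and 216 FPKM in flox and at 204, 191 and 239 in HKO. Flox library 3 lay below HKO library 3, so the groups overlapped. HKO minus flox gave a log2 difference of -0.33 (SE 0.18, 95% interval -0.76 to 0.09, limma with Benjamini-Hochberg adjustment, adjusted p = 0.395).

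Cyp7b1 (gene 13123, chr3:18071944-18243890, minus strand) hydroxylates the oxysterols that CYP27A1 makes. It was at 151, 145 and 48.1 FPKM in flox and at 65.5, 66.8 and 66.7 in HKO. The HKO libraries were within 1.02-fold of each other, while flox library 3 was 3.15-fold below flox library 1 and was the lowest of all 6. The log2 difference was -0.62 (SE 0.42, 95% interval -1.61 to 0.38, limma with Benjamini-Hochberg adjustment, adjusted p = 0.489). Without flox library 3 it was -1.15 and passed as lower (adjusted p = 0.0449 by the same test, within 0.0449 to 0.786 over its alternatives). Per unit of Cyp7a1, Cyp7b1 was 3.35, 2.47 and 1.55 in flox and 0.809, 2.42 and 0.956 in HKO.

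Flox library 3 also stood apart in several of its clock genes, and as background Cyp7a1 is known to follow the clock. Its Clock level was 4.81 FPKM against 1.65 to 2.47 in the other 5 libraries. Among genes singled out after their values were seen, Arntl (BMAL1) was at 1.77 there and at no more than 0.610 elsewhere, and Tef was at 19.7 there and at least 43.7 elsewhere. Per1 and Per2, of the negative arm, were lowest there (4.85 and 3.58 FPKM). Nr1d1 and Cry1, also singled out afterwards, lay there within the range of the other libraries (24.4 and 2.36 FPKM). Between the groups 9 of 12 tested clock genes were higher in HKO and 3 lower (median log2 0.35), and Nfil3, a repressor of D-box genes, passed as lower (5.16 ± 0.762 and 1.91 ± 0.0864 FPKM, SD, n = 3). The part of the clock in the bile acid genes was not tested.

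**Figure D2:**
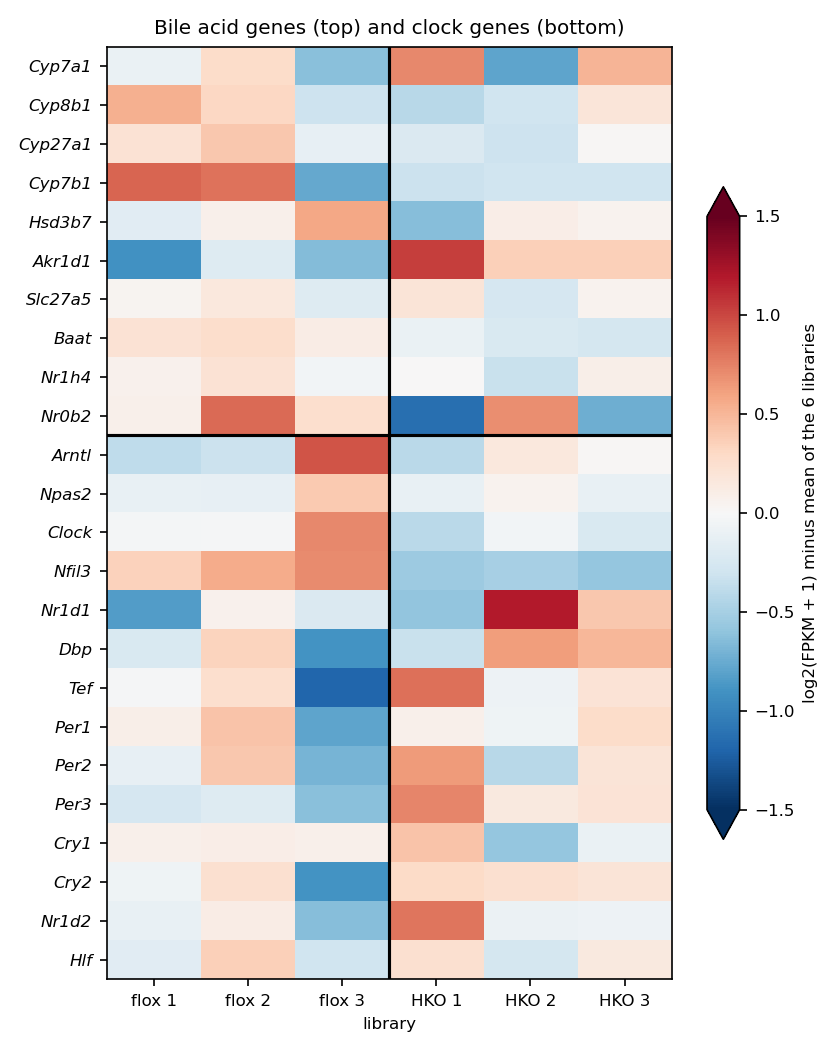
Rows are genes and columns libraries; colour gives log2(FPKM + 1) minus the gene's mean over the 6 libraries. Among the flox libraries, library 3 is low for Cyp7b1, Cyp7a1, Tef and Per2 and high for Arntl and Clock, and Akr1d1 is high in all 3 HKO libraries.

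Sex-biased liver genes were read beside Cyp7b1. Xist was at no more than 0.0173 FPKM in any library, and the Y-linked Ddx3y was at 11.3 to 19.9 FPKM over all 6. By these genes every library read as male. Of 8 male-biased genes 7 were lower in HKO (median log2 -0.67) and 0 passed by limma. An unadjusted p under 0.05 was reached by 3 of the 8, and by 17.0% of all tested genes. Hsd3b5 was at 151.5 ± 52.0 FPKM in flox and 96.3 ± 17.6 in HKO, and Cyp2d9 at 1323 ± 260 and 785 ± 141 (SD, n = 3). Unlike Cyp7b1, Cyp2d9 and Cyp4a12a had every HKO library below every flox library. This was so for 4 of the 8 male-biased genes, and for 12.6% of all tested genes. Of 7 female-biased genes 3 were tested and 0 passed by limma, with 2 higher and 1 lower and 1 at an unadjusted p under 0.05. Cyp2b9 was at 0.940 ± 1.48 FPKM in flox and 6.20 ± 3.20 in HKO and higher in every HKO library (log2 2.04), and Cyp17a1 had a log2 difference of -0.84. Whether sex-biased genes bear on Cyp7b1 was not tested.

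Hsd3b7 (gene 101502, chr7:127800601-127803803, plus strand), which oxidises the sterol after 7-alpha-hydroxylation in both pathways, was at 166, 197 and 281 FPKM in flox and 119.7, 201 and 195 in HKO. HKO library 1 was the lowest and flox library 3 the highest. Its log2 difference was -0.32 (SE 0.27, 95% interval -0.96 to 0.31, limma with Benjamini-Hochberg adjustment, adjusted p = 0.576).

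Akr1d1 (gene 208665, chr6:37529978-37574934, plus strand) encodes the 5-beta-reductase that gives bile acids their bent ring. It was at 14.0, 23.7 and 16.9 FPKM in flox and at 56.6, 35.1 and 35.0 in HKO. Every HKO library lay above every flox library, and HKO library 1 was the highest. The ratio of means was 2.32, and the log2 difference of 1.17 (SE 0.25) had a 95% interval of 0.57 to 1.76. Its adjusted p was 0.0911 by limma with Benjamini-Hochberg adjustment, which misses the threshold. Over 18 alternatives the difference was 0.94 to 1.36 and the adjusted p 0.0488 to 0.268, and it passed in 1 of them, voom scaled to the sum of reads. The lowest difference came without HKO library 1. The antisense Gm33429 overlaps the gene and was at no more than 0.221 FPKM in any library.

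Slc27a5 (gene 26459, chr7:12988346-12998192, minus strand), the ligase that activates bile acids before conjugation, had the highest level of the 10, at 391, 424 and 331 FPKM in flox and 435, 319 and 394 in HKO. The means were 382 ± 46.8 and 383 ± 58.8 (SD, n = 3). The 95% interval of the log2 difference was -0.41 to 0.41, so a difference of that size either way is not excluded by these libraries.

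Baat (gene 12012, chr4:49489416-49507916, minus strand), which attaches taurine or glycine, was at 68.9, 71.6 and 64.1 FPKM in flox and at 55.5, 50.4 and 49.4 in HKO. Every HKO library lay below every flox library, with little spread inside either group. The log2 difference was -0.39 (SE 0.13, 95% interval -0.69 to -0.09), and its adjusted p was 0.191 by limma with Benjamini-Hochberg adjustment. With a library left out the difference was -0.44 to -0.36, and Baat passed in 0 of 18 alternatives. The antisense Gm32894 overlaps Baat and was at 9.44 to 11.9 FPKM over the 6 libraries, and reads of the pair cannot be told apart if counting ignored strand. Acnat1 and Acnat2, relatives of Baat that conjugate fatty acids, had log2 differences of -0.36 and -0.08.

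Nr1h4 (gene 20186, chr10:89454234-89533646, minus strand), the bile acid receptor FXR, was at 64.4, 71.9 and 59.5 FPKM in flox and 61.7, 48.6 and 65.4 in HKO. The ranges overlapped (log2 -0.16, SE 0.16, 95% interval -0.54 to 0.22, limma with Benjamini-Hochberg adjustment, adjusted p = 0.637).

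Nr0b2 (gene 23957, chr4:133553376-133556686, plus strand), the repressor SHP, was at 22.3, 38.8 and 25.2 FPKM in flox and at 9.06, 34.8 and 12.3 in HKO. HKO libraries 1 and 3 were the lowest of the 6, and HKO library 2 lay inside the flox range, 3.84-fold above HKO library 1. The log2 difference was -0.78 (SE 0.47, 95% interval -1.89 to 0.33, limma with Benjamini-Hochberg adjustment, adjusted p = 0.438). It was -1.32 without HKO library 2 and -0.41 without HKO library 1, and passed in neither.

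Cyp7a1 and Nr0b2 thus took opposite ends in the HKO libraries. Cyp7a1 stood at 2.02, 1.52 and 1.23 times Nr0b2 in flox libraries 1 to 3, and at 8.93, 0.793 and 5.66 times in HKO libraries 1 to 3. Over the 6 libraries Pearson's r of log2(FPKM + 1) was -0.69 (exact permutation p = 0.146, two-sided) and Spearman's rho -0.66 (exact permutation p = 0.175). Without the 2 libraries farthest from the median of Cyp7a1, flox 3 and HKO 2, r was -0.69 over 4 libraries. In all 45 pairs of the 10 genes were computed, and 0 had a Benjamini-Hochberg adjusted permutation p under 0.05 (lowest 0.312). The strongest was Cyp7a1 with Slc27a5, at r = 0.94 (exact permutation p = 0.0139, adjusted 0.312) and rho = 0.94 (exact permutation p = 0.0167, adjusted 0.500). Without flox 3 and HKO 2 it was 0.62.

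**Figure D3:**
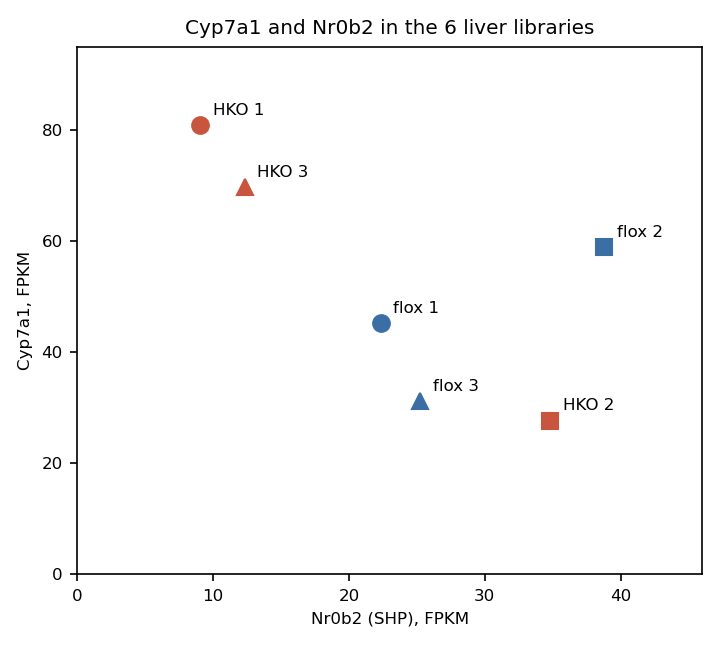
Cyp7a1 FPKM (y axis) is plotted against Nr0b2 FPKM (x axis) for each library, flox in blue and HKO in red. HKO libraries 1 and 3 have high Cyp7a1 and low Nr0b2, and HKO library 2 the reverse.

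On the per-length scale the 10 genes ran from 23.8 FPKM for Nr0b2 to 383 for Slc27a5, as means over the 6 libraries, between the 80.8th and 98.6th percentile of tested genes. Slc27a5 lay above the rest in every library. Below it came Cyp27a1, Cyp8b1, Hsd3b7, Cyp7b1, Nr1h4, Baat, Cyp7a1, Akr1d1 and Nr0b2, and the range of each overlapped that of the next. The deposited length of Akr1d1 is 5384 bases, whereas its longest GENCODE M21 coding transcript has 2699, and for Baat these are 3306 and 1941, so the places of both in this order depend on the gene model. Spread inside the groups differed widely among the 10. The pooled within-group SD on the log2 scale was 0.74 for Nr0b2, 0.66 for Cyp7a1 and 0.66 for Cyp7b1, above 97.2%, 96.2% and 96.1% of tested genes, and 0.08 for Baat, above 6.07%.

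The rest of the synthesis pathway was read from a list of 14 further enzymes, of which 12 passed the filter. None passed the test by limma. In HKO 3 were higher and 9 lower (median log2 -0.23), where 5022 of all tested genes were higher and 5431 lower. An unadjusted p under 0.05 was reached by 3 of the 12, and by 17.0% of all tested genes. The oxysterol hydroxylase Cyp39a1, which feeds a minor route, was at 5.69, 6.14 and 6.80 FPKM in flox and 20.3, 12.3 and 10.9 in HKO. Its groups were separate, and its log2 difference of 1.06 (SE 0.22) did not pass (limma with Benjamini-Hochberg adjustment, adjusted p = 0.0865). Akr1d1 and Cyp39a1 were the 2 largest positive differences among the enzymes.

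Several enzymes of the list shorten the side chain in peroxisomes. Slc27a2, which activates the side chain, was at 906 ± 169 FPKM in flox and 568 ± 70.7 in HKO (log2 -0.66), and the thioesterase Acot8 was at 6.24 ± 1.49 and 3.61 ± 0.878 (log2 -0.65, SD, n = 3). In both, every HKO library lay below every flox library, as was so for 12.6% of all tested genes. The transporter Abcd3, the racemase Amacr, the oxidase Acox2, the bifunctional enzyme Hsd17b4 and the thiolase Scp2 had log2 differences of -0.25, -0.20, -0.21, -0.29 and -0.37, and the groups overlapped in each of these 5. Cyp2c70, which makes the muricholic acids of mice, was at 319 ± 88.5 and 351 ± 41.4 FPKM, and Cyp2a12, which restores a hydroxyl group to returning bile acids, at 306 ± 43.1 and 372 ± 19.8. Ch25h and Cyp46a1, of other oxysterol routes, were below the filter.

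Of 17 regulators 16 were tested and 0 passed by limma, with 3 higher and 13 lower (median log2 -0.24). At an unadjusted p under 0.05 there were 6 lower, where 882 of all 10453 tested genes were. Hnf4a, a hepatocyte factor that activates Cyp7a1 and Cyp8b1, was at 165, 164 and 151 FPKM in flox and 83.2, 116 and 133 in HKO. All HKO libraries lay below flox, and HKO library 1 was the lowest (log2 -0.55, SE 0.19, limma with Benjamini-Hochberg adjustment, adjusted p = 0.216). The oxysterol receptor Nr1h3 (LXR alpha) had 49.5 ± 3.64 and 37.3 ± 6.59 FPKM, and the xenobiotic receptor Nr1i2 (PXR) 46.6 ± 13.2 and 27.6 ± 3.84 (SD, n = 3). Onecut1, which binds the Cyp7a1 promoter, was at 6.32, 5.80 and 20.3 FPKM in flox and 3.46, 1.17 and 3.91 in HKO. It had the largest difference of the list (log2 -1.49), and flox library 3 was its highest value. Insig2, which holds back the maturation of SREBP, was at 54.2 ± 19.2 and 27.5 ± 7.80 FPKM and the xenobiotic receptor Nr1i3 (CAR) at 96.7 ± 23.7 and 65.8 ± 10.5. In Hnf4a, Nr1h3, Nr1i2, Insig2 and Onecut1 every HKO library lay below every flox library, as was so for 12.6% of all tested genes. In Nr1i3 the groups overlapped.

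Genes that receive the gut signal did not pass. Fgfr4 was at 11.7 ± 1.76 FPKM in flox and 11.6 ± 1.31 in HKO, with a 95% interval of -0.37 to 0.34 for the log2 difference. Its co-receptor Klb was at 6.82 ± 1.07 and 9.01 ± 2.15 FPKM (log2 0.34, 95% interval -0.11 to 0.79). Nr5a2 (LRH-1), the factor that SHP holds back, was at 9.66 ± 0.534 and 9.50 ± 0.346 (log2 -0.02, 95% interval -0.29 to 0.24). Fgf15, the ileal hormone, was listed at 0 in all 6 libraries. The bile acid receptor Gpbar1 was below the filter.

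**Figure D4:**
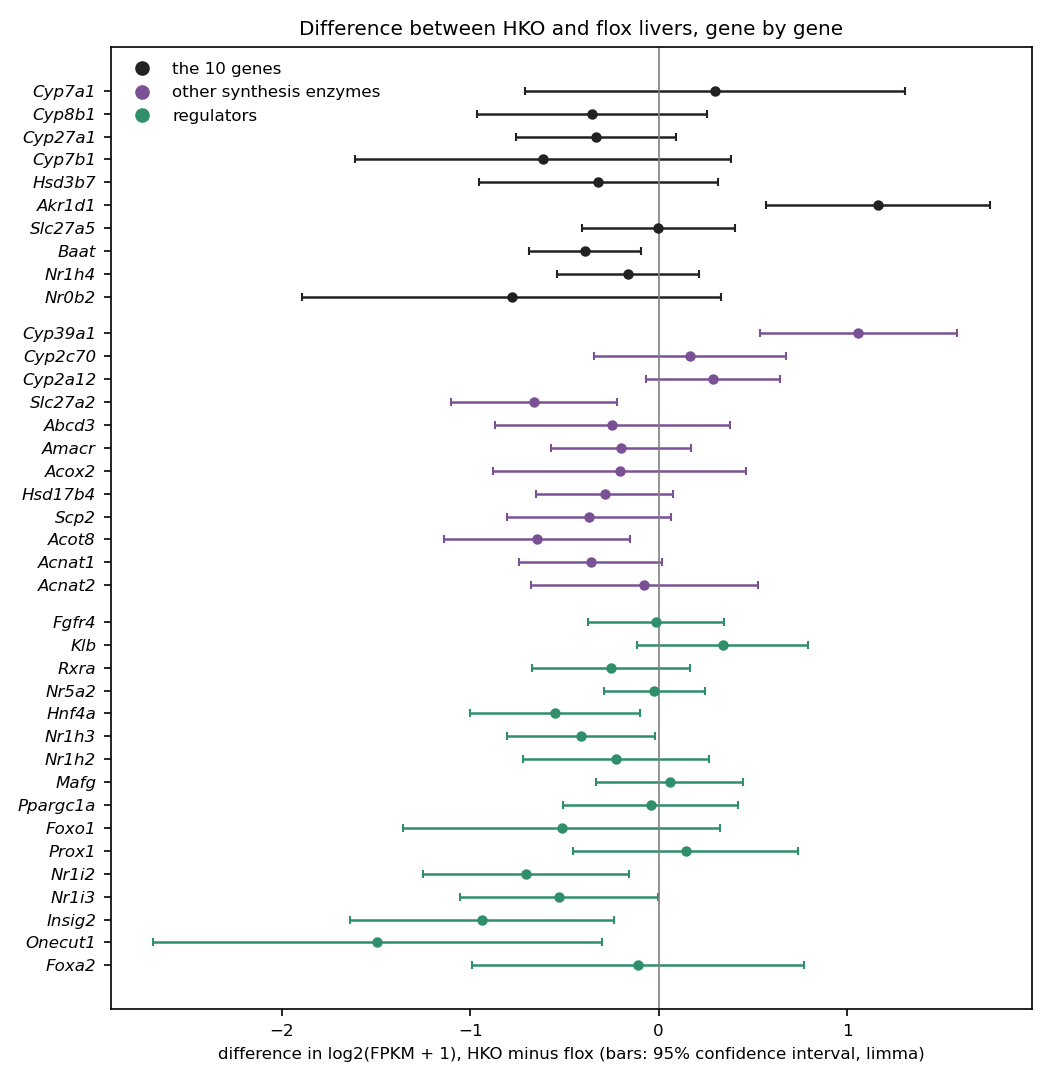
Points are differences in log2(FPKM + 1), HKO minus flox, and bars their 95% intervals by limma, for the 10 genes (black), 12 other enzymes (purple) and 16 regulators (green). Akr1d1 and Cyp39a1 lie farthest to the right and Onecut1 farthest to the left, and none passed after adjustment.

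Known FXR targets other than Nr0b2 lay on both sides of 0. Of 7 tested, 3 were higher and 4 lower (median log2 -0.20), and 0 passed by limma. An unadjusted p under 0.05 was reached by 2 of the 7, and by 17.0% of all tested genes. Abcb11, the bile salt export pump, was at 72.8 ± 16.1 FPKM in flox and 74.2 ± 6.95 in HKO. Abcb4, which moves phosphatidylcholine into bile, was at 128, 84.2 and 76.4 FPKM in flox and 36.7, 43.4 and 55.3 in HKO (log2 -1.06, limma with Benjamini-Hochberg adjustment, adjusted p = 0.0964). Apoc2, an activator of lipoprotein lipase, was at 21.3 ± 7.14 and 9.31 ± 3.68 FPKM, and Pltp at 11.3 ± 2.53 and 9.56 ± 0.805 (SD, n = 3). In Abcb4 and Apoc2 every HKO library lay below every flox library, and in 1 other target every HKO library lay above. Over all tested genes 12.6% lay wholly below and 12.8% wholly above.

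Among bile acid and biliary lipid transporters 9 of 11 tested were higher in HKO (median log2 0.14), and 0 passed by limma. An unadjusted p under 0.05 was reached by 2 of the 11, and by 17.0% of all tested genes. Abcb11 and Abcb4 are on this list as well as among the FXR targets, so Abcb4 is counted at this threshold in both. The uptake carriers Slc10a1 and Slco1b2 were at 244 ± 49.0 and 254 ± 32.7 FPKM in flox and at 283 ± 23.3 and 286 ± 82.4 in HKO. Slco1a4, another carrier of the uptake family, was at 7.25 ± 2.53 FPKM in flox and 27.3 ± 12.4 in HKO (SD, n = 3), with separate groups (log2 1.74, limma with Benjamini-Hochberg adjustment, adjusted p = 0.0911).

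Genes whose level ran most like that of a member over the 6 libraries were taken by Pearson's r of log2(FPKM + 1), as a description. For Cyp7a1 they were Fam47e (0.99), Gm10260 (0.98) and Hdhd2 (0.98), and 7 tested genes exceeded 0.95. For Cyp8b1 they were the cyclin Ccnd1 (0.99), a locus without a gene name (0.98) and the steroid hydroxylase Cyp17a1 (0.98), with 42 above 0.95. For Cyp7b1 they were another unnamed locus (0.99), the cadherin Cdh2 (0.99) and the antiproliferative Btg2 (0.99), with 55 above 0.95. Btg2 was at 9.37, 7.12 and 1.86 FPKM in flox and 2.82, 2.88 and 3.03 in HKO. As for Cyp7b1, flox libraries 1 and 2 stood far above the other 4.

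The letters GGACT, a common context of N6-methyladenosine, were counted on the sense strand of the longest coding transcript of each gene in GENCODE M21. The 10 transcripts held 0 to 4 copies, against a median of 3 in 9176 transcripts of tested genes, of which 92.1% held at least 1. Baat had the most per kilobase (4 copies, 2.06 per kilobase), and Nr1h4 had none. Akr1d1 and Cyp7b1 had 1 copy each, at the 12.1th and 15.6th percentile per kilobase. Copies of the letters say nothing of methylation, which was not measured in these libraries.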

How the data were processed

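Per the series text, the authors aligned read pairs to GRCm38.p6 with HISAT2 2.0.5 and counted them with featureCounts 1.5.0-p3. CASAVA and DESeq2 1.20.0 stand in the submitters' processing notes too, with no role. Which annotation and strand setting were used, and how multiply mapped reads were handled, is not stated there. The deposited values are FPKM per library. FPKM times gene length was a whole multiple of 1 step in 100% of values (tolerance 0.001), which gave the reads back. The authors' library size was 0.925 to 1.08 times their sum, and median-of-ratios factors of the deposited values were 1 in every library.

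Groups were compared with limma 3.58.1 (R 4.3.3, statmod 1.5.0; trend and robust) on log2(FPKM + 1), HKO minus flox, with no covariate and Benjamini-Hochberg adjustment over all genes with a mean of at least 1 FPKM. The fit was tested on simulated data. Pair correlations and figures used Python 3.11.15, scipy 1.17.1 and matplotlib 3.10.9.

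The 10 genes and all lists were chosen with earlier results of these data known. Named were the 10 genes, Alkbh5, any enzyme or regulator on the lists and the first 4 tested genes of other lists. Also named were any gene of a list that passed and the 3 genes most like Cyp7a1, Cyp8b1 and Cyp7b1. Xist, Krt19, Krt7, Fgf15, Arntl, Tef, Nr1d1 and Cry1, and the antisense neighbours of Akr1d1 and Baat, were chosen after their values were seen. One gene that the rule would name is not reported here. Replicates are independent biological replicates per the labels. Libraries of a group differed by a chi-square of 28.3 to 63.0 per degree of freedom, so none was a copy.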

Additional observations from a re-analysis of the deposited data

How the results depend on the processing

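Of the 10 genes 0 passed as higher and 0 as lower, and this held in 16 of 18 alternatives: voom scaled to the sum of reads, added after the data were seen, passed 1 as higher (Akr1d1), and with a library left out 0 to 1 passed as lower (Cyp7b1, without flox library 3). No gene of the 4 other lists of enzymes, regulators, FXR targets and transporters passed in any alternative, and their medians kept their sign in all 18. Over all tested genes 28 were higher and 23 lower. With a library left out these were 0 to 29 and 1 to 41, in fits with fewer samples. A pseudocount of 0.1 gave 18 higher, no filter 0 and 1, and voom scaled to the sum of reads 78 and 42. The replicate block gave 1 and 8, and passed 0 of the 10 genes. Deviations of same-numbered libraries had correlations of 0.153, -0.145 and -0.0514, and 1 of 3 pairs correlated best with its own number. Whether same-numbered libraries share more than a number cannot be told from 3 pairs. Slc27a5 turned to 0.0554 with quantile scaling, 0.0763 with TPM and, when scaled to the sum of reads, 0.0735 (limma) and 0.0737 (voom). It ranged from -0.0994 to 0.124 with a library left out; the cause was not tested. Median-of-ratios scaling changed nothing, since its factors were already 1. Nr0b2 had the fewest reads of the 10, 186 to 819 per library.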
